A study of Rattus norvegicus with 12 samples.

Results

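A set of 7 genes of laminin-332 and of the hemidesmosome, the junction that binds it, was followed in rat Schwann cells by messenger RNA sequencing. They are Lama3 and Lamb3 (laminin chains), Itga6 and Itgb4 (the integrin), Col17a1 (a transmembrane collagen), and Plec and Dst (plakin linkers). The genes were taken by gene name, as 7 of 30957 genes of the deposited table, and all 7 passed the filter on low counts. They were selected on their levels across these 4 groups in earlier results of the same libraries, so their values are a description and carry no p-value.

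The 12 libraries fall into 4 groups of 3. Schwann cells were co-cultured with macrophages induced by medium of MIA PaCa-2, a human pancreatic cancer line (MiaTAM), or by medium of BxPC-3, another such line (BxTAM), together called the tumour-conditioned co-cultures. A further group was co-cultured with monocyte-derived macrophages that had no such induction (MDM), and the last was grown alone. The MDM libraries are titled PBMC, and their treatment label reads untreated, as for the cells alone, while their source label names the MDM co-culture. Only the cells alone carry a line name, Rsc96, taken here as RSC96, an immortalised rat Schwann cell line. The headers write HSC96 for that group. No source used here gives the species of the macrophages, how they were kept with the Schwann cells or for how long. The design also names another kind of induced macrophage, not analysed here. Whether libraries of 1 group stem from separate cultures is not labelled, so p-values cover the spread between samples alone, and that spread may be technical.

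Library totals ran between 16555215 and 21506669 counts, and 12360 genes entered the tests. The labelled cell type was checked against its markers. Sox10, the glial transcription factor, had 1 count over all 12 libraries, Cdh19 had none, and S100b had 8 to 14 counts per group, while Pmp22 had 4232 to 5229 counts per group. Of the epithelial markers, Epcam, Krt5, Krt14 and Krt19 were listed at 0 in every library, as were the macrophage markers Tyrobp and C1qa. Other epithelial markers had counts, with 22 to 56 per group for Cdh1, 12 to 39 for Grhl2 and 1 to 21 for Tp63. Cd151 and Col4a1 were also listed at 0 throughout, and whether a gene at 0 was silent or not counted cannot be told here. The 16 macrophage markers summed to 19.2 to 20.5 CPM (counts scaled to library size) in MiaTAM, 16.9 to 18.0 in BxTAM, 13.4 to 15.2 in MDM libraries and 8.67 to 10.1 in cells alone. Of these, 13 averaged under 1 CPM in each co-culture and 14 in cells alone. The highest were Csf1r, at 9.25 CPM in MiaTAM and 3.34 CPM in cells alone, and Cd14, at 7.35 and 4.43 CPM. Lyz2 ran the other way, at 0.149 and 0.323 CPM. The 12 epithelial markers summed to 26.5 to 29.4 CPM in MiaTAM, 14.2 to 16.2 in BxTAM, 22.5 to 24.8 in MDM libraries and 19.7 to 20.6 in cells alone. In every group 10 of them averaged under 1 CPM, and the sums were mostly Krt8 and Cldn4. Cldn4 averaged 21.9 CPM in MiaTAM, 10.2 in BxTAM, 13.4 in MDM libraries and 16.1 in cells alone. The 7 fibroblast markers summed to 472 to 505 CPM in MiaTAM, 421 to 444 in BxTAM, 483 to 507 in MDM libraries and 369 to 381 in cells alone, with Col1a2, Dcn and Lum listed at 0 in every library. The part of these marker sums in the results below was not tested.

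Laminins are basement membrane proteins built of an alpha, a beta and a gamma chain, and laminin-332 holds the products of Lama3 and Lamb3. In epithelia such as the epidermis it is held by integrin alpha 6 beta 4, which plectin and the dystonin isoform BPAG1e tie to keratin filaments, with collagen XVII as a further transmembrane part. Schwann cells lay down a basal lamina of other laminins and use the same integrin as a laminin receptor, without forming hemidesmosomes.

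The promoters of both laminin members are shown because their transcripts ran in opposite directions against cells alone. Of the 7 genes, 4 matched the RefSeq promoter table (build GRCr8), which gives 250 bases before and 50 bases after a transcript start. The Lama3 window is chr18:3952517-3952816 and the Lamb3 window chr13:107362303-107362602, both on the plus strand. Capitals mark each match to TGANTCA, the AP-1 motif, searched on both strands.

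Lama3: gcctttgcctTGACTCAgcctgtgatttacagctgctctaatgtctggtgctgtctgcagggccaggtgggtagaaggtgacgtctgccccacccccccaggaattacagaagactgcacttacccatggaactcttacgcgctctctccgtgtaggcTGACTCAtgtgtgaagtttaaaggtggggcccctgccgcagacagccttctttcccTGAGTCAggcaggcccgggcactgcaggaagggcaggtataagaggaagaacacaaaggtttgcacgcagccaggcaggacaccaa

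Lamb3: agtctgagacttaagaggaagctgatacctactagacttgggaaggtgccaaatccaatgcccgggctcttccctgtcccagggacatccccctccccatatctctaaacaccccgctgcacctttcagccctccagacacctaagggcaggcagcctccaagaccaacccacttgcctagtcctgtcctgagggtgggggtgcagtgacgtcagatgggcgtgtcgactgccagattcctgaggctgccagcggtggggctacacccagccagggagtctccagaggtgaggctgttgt

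The Lama3 window held 3 such matches, which begin 240, 92 and 36 bases before the start. Among 33469 rat promoters of the same length, 7.33% held the motif at least once and 5 promoters (0.0149%) held it 3 or more times, a share looked at after the Lama3 matches were seen. The Lamb3 window held no match to TGANTCA, to the E-box CACGTG, to the GC box GGGCGG or to TATAAA. In Col17a1, TATAAA was matched 2 times, a motif held by 14.2% of promoters. GGGCGG was matched 6 times in Dst, against 33.1% of promoters with at least 1 match and 8.97% with 3 or more. CACGTG, held by 6.42%, was in none of the 4 windows. A match is a description of letters and not a binding site.

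The 7 genes did not move as a block. Lamb3 was 3.85 to 6.26 times as high in the co-cultures as in cells alone, whereas Lama3 was lower in all of them. Itgb4 was higher in both tumour-conditioned co-cultures than in MDM co-culture and cells alone, and its partner Itga6 stayed within a narrow range. Plec was lowest in MDM co-culture and highest in cells alone. Lamb3 had the widest span, with a 6.27-fold ratio of its highest to its lowest group mean, and Itga6 the narrowest, at 1.03. In bulk RNA, fewer cells of a type and less RNA per cell cannot be told apart.

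**Figure D1:**
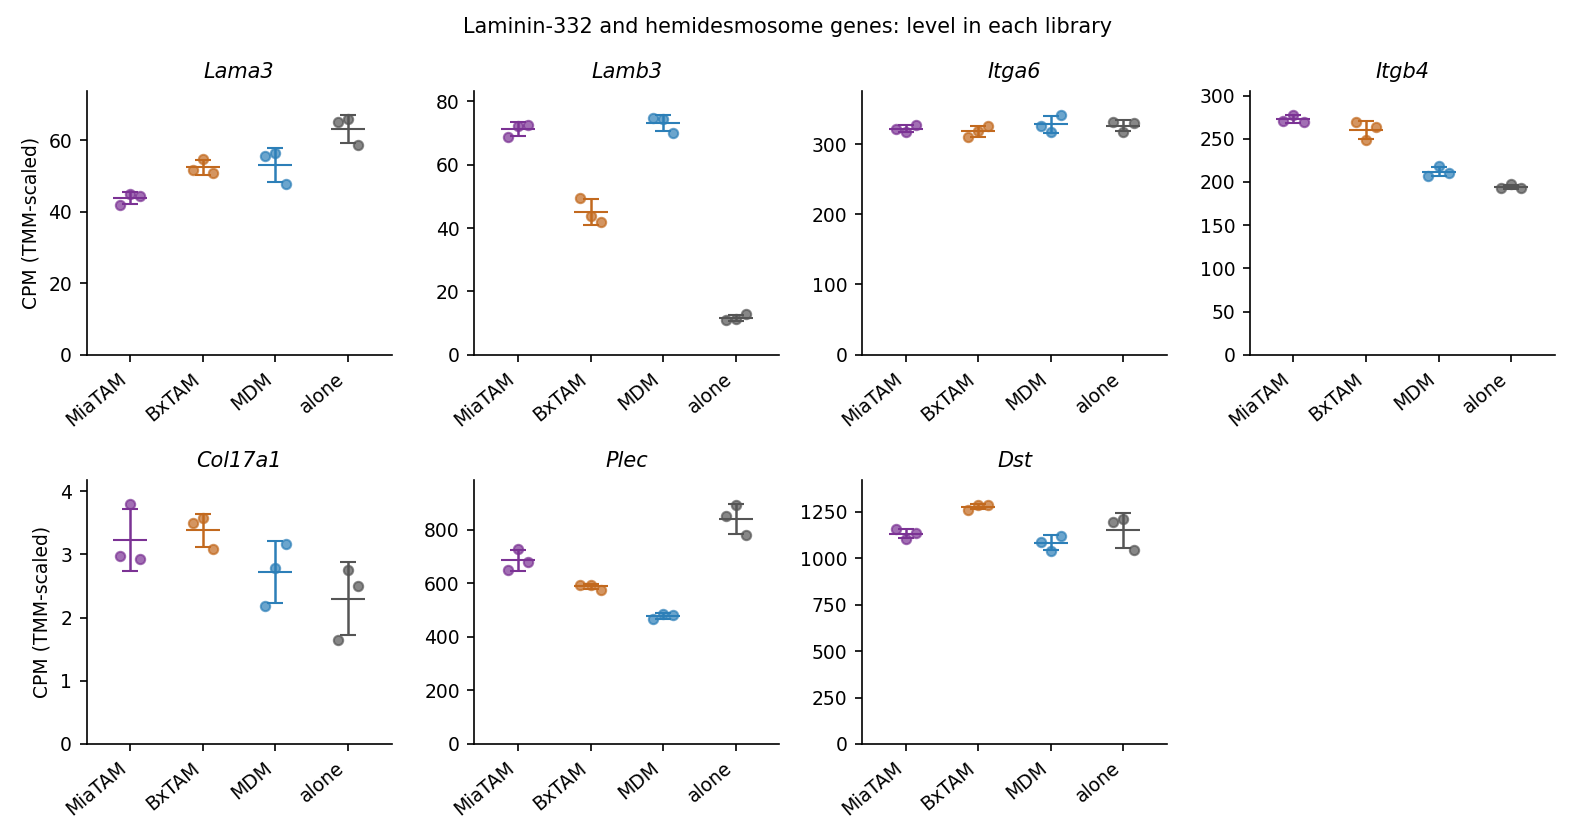
Level of each of the 7 genes in CPM after TMM scaling (vertical axes, from 0). Each point is a library, the horizontal line the group mean and the bar its SD (n = 3), and Lamb3 stands at 11.0 to 12.7 CPM in cells alone and at 41.8 CPM or more in every co-culture library.

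Lama3 encodes the alpha 3 chain (ENSRNOG00000011300, chr18:3861539-3940823 in Rnor_6.0). Its level was 41.9, 45.1 and 44.4 CPM in MiaTAM libraries, 51.7, 54.9 and 51.0 CPM in BxTAM libraries, 55.5, 56.5 and 47.7 CPM in MDM libraries and 65.1, 66.0 and 58.6 CPM in cells alone. Every co-culture library lay below every library of cells alone, the MiaTAM libraries lay lowest, and BxTAM and MDM libraries overlapped. Against cells alone the log2 change (± SE) was -0.53 ± 0.06 for MiaTAM, -0.27 ± 0.06 for BxTAM and -0.25 ± 0.06 for MDM. MiaTAM differed from MDM by -0.28 ± 0.07 and from BxTAM by -0.26 ± 0.07, while BxTAM differed from MDM by -0.02 ± 0.06.

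Lamb3 encodes the beta 3 chain (ENSRNOG00000006025, chr13:112031594-112073186). It was read at 68.8, 72.4 and 72.6 CPM in MiaTAM libraries, 49.5, 43.7 and 41.8 CPM in BxTAM libraries, 74.9, 74.6 and 70.1 CPM in MDM libraries and 11.0, 11.3 and 12.7 CPM in cells alone. The cells alone stood far below all co-cultures, BxTAM lay between, and MiaTAM and MDM libraries overlapped. The fold over cells alone was 6.10 for MiaTAM (log2 2.61 ± 0.07), 3.85 for BxTAM (1.95 ± 0.08) and 6.26 for MDM (2.65 ± 0.07). BxTAM was lower than MDM by a log2 change of -0.70 ± 0.06, MiaTAM was 1.58-fold higher than BxTAM (0.66 ± 0.06), and MiaTAM against MDM gave -0.04 ± 0.06. The summed fibroblast markers were likewise lowest in cells alone, with BxTAM between and MiaTAM and MDM overlapping, and 3 of 7 of them were tested and called higher in MDM against cells alone. In MiaTAM and in BxTAM against cells alone 2 of these 3 were called higher. Thy1 made up most of the sum, at 319 CPM in MiaTAM, 279 in BxTAM, 312 in MDM libraries and 264 in cells alone. Col1a1, another of these markers, averaged 75.0 CPM in MiaTAM, 50.7 in BxTAM, 73.7 in MDM libraries and 16.9 in cells alone. Pdgfra averaged 91.5 CPM in MiaTAM, 104 in BxTAM, 107 in MDM libraries and 93.6 in cells alone. Col3a1 ran the other way, with 13 counts in cells alone and 1, 1 and 2 in MiaTAM, BxTAM and MDM. The part of the fibroblast markers in the Lamb3 values was not tested.

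Levels were set side by side per length with the deposited FPKM (fragment counts scaled to gene length and library size). Lamb3 over Lama3 averaged 2.04 ± 0.0225 in MiaTAM, 1.07 ± 0.109 in BxTAM, 1.72 ± 0.0981 in MDM libraries and 0.232 ± 0.0340 in cells alone (SD, n = 3 each). Lama3 was therefore the more abundant of these transcripts in cells alone, and Lamb3 was in MiaTAM and MDM co-culture. Lama3 made up 15.2% ± 0.360 of the summed FPKM of the measured alpha chains in MiaTAM, 18.4% ± 0.788 in BxTAM, 18.6% ± 1.31 in MDM libraries and 32.3% ± 0.397 in cells alone. Lamb3 made up 13.9% ± 0.184 of the beta chains in MiaTAM, 9.11% ± 0.651 in BxTAM, 13.8% ± 0.341 in MDM libraries and 3.74% ± 0.402 in cells alone. The length that the FPKM imply for Lama3 is 5178 bases, and gene-level counts do not separate the long and short isoforms of Lama3, Plec or Dst.

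**Figure D2:**
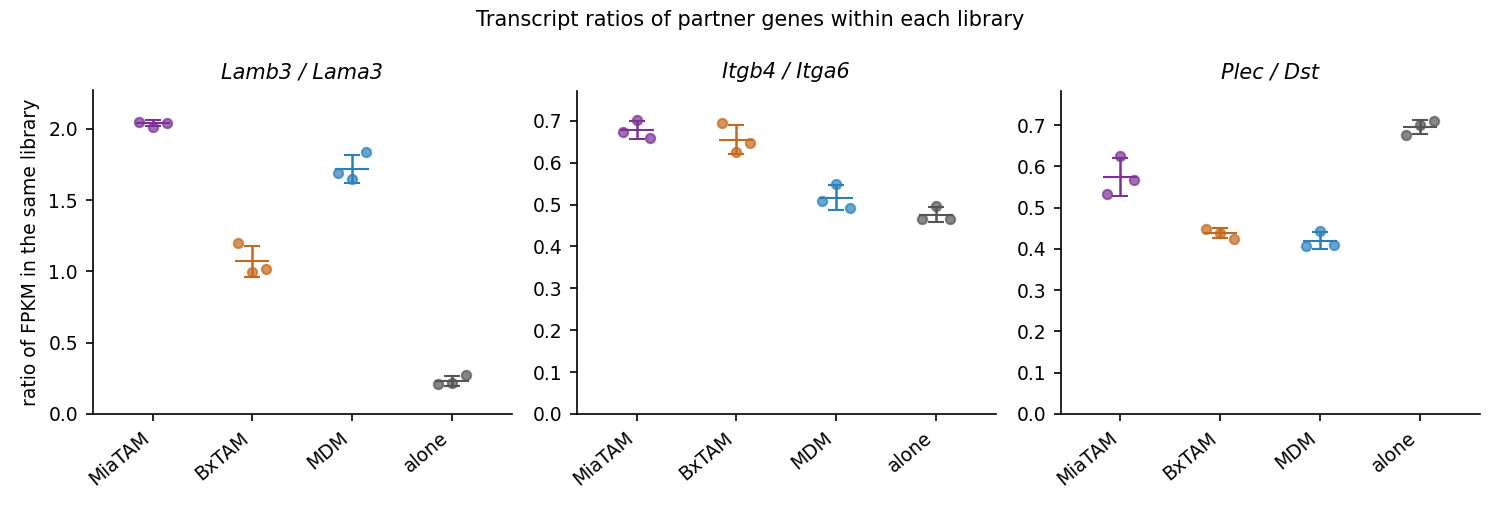
Ratio of FPKM of partner genes within the same library (vertical axes, from 0). Points are libraries, lines group means and bars SD (n = 3). Lamb3 over Lama3 is 0.212 to 0.272 in cells alone and at least 0.995 in every co-culture library, and Plec over Dst is highest in cells alone.

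Itga6 and Itgb4 encode the alpha 6 and beta 4 subunits of the laminin-332 receptor. Itga6 (ENSRNOG00000001518, chr3:58443101-58515124) had 321, 317 and 327 CPM in MiaTAM libraries, 309.9, 318 and 325 CPM in BxTAM libraries, 326, 317 and 342 CPM in MDM libraries and 331, 317 and 330.4 CPM in cells alone. All groups overlapped, and the 6 log2 changes lay between -0.05 and 0.02, each with an SE of 0.04. With upper-quartile scaling those against cells alone were 0.02 to 0.07. The spread among libraries of a group was as wide as any difference between groups.

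Itgb4 (ENSRNOG00000005580, chr10:104523996-104561078) had 271, 278 and 269 CPM in MiaTAM libraries, 269, 249 and 263 CPM in BxTAM libraries, 207, 218 and 209.9 CPM in MDM libraries and 193, 197 and 193 CPM in cells alone. Both tumour-conditioned co-cultures stood well above the others, and no neighbouring groups overlapped, although MiaTAM and BxTAM met at 269 CPM after rounding. The log2 change against cells alone was 0.49 ± 0.04 for MiaTAM, 0.42 ± 0.04 for BxTAM and 0.12 ± 0.04 for MDM. Against MDM it was 0.37 ± 0.04 for MiaTAM and 0.30 ± 0.04 for BxTAM. MiaTAM against BxTAM gave 0.07 ± 0.04 and was not called. Itgb4 over Itga6 in FPKM averaged 0.678 ± 0.0221 in MiaTAM, 0.655 ± 0.0352 in BxTAM, 0.516 ± 0.0299 in MDM libraries and 0.476 ± 0.0179 in cells alone (SD, n = 3 each).

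The Itgb4 locus overlaps Galk1, a galactose kinase gene, and no source used here states whether counting used strand. Galk1 averaged 97.6 CPM in MiaTAM, 85.1 in BxTAM, 106 in MDM libraries and 109 in cells alone. It ran opposite to Itgb4 between BxTAM and MDM (edgeR log2 -0.31 ± 0.05, adjusted p = 1.4e-04). Between MiaTAM and BxTAM the means of both genes were higher in MiaTAM. The part of Galk1 reads in the Itgb4 values was not tested. SNORA42, which lies within the Itga6 locus, had 22 counts over all libraries.

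Col17a1 encodes collagen XVII (ENSRNOG00000012110, chr1:267417459-267463705) and was the scarcest of the 7 genes. It had 57, 63 and 54 counts in MiaTAM libraries, 65, 62 and 56 in BxTAM libraries, 38, 49 and 68 in MDM libraries and 29, 54 and 47 in cells alone. As CPM this was 2.97, 3.80 and 2.93 in MiaTAM, 3.49, 3.57 and 3.08 in BxTAM, 2.19, 2.78 and 3.17 in MDM and 1.65, 2.75 and 2.50 in cells alone. All libraries of both tumour-conditioned co-cultures lay above those of cells alone, while MDM libraries overlapped MiaTAM, BxTAM and cells alone. The log2 change against cells alone was 0.47 ± 0.19 for MiaTAM, 0.54 ± 0.19 for BxTAM and 0.24 ± 0.20 for MDM. Replicate 1 of the cells alone held the lowest value. Without it the changes were 0.30 for MiaTAM and 0.37 for BxTAM, and neither was called.

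Plec encodes plectin, which links the integrin to intermediate filaments (ENSRNOG00000023781, chr7:117230319-117289961). Its level was 649, 727 and 679 CPM in MiaTAM libraries, 594, 594 and 576 CPM in BxTAM libraries, 467, 485 and 482 CPM in MDM libraries and 849.7, 891 and 778 CPM in cells alone. The 4 groups did not overlap, with the cells alone highest and MDM lowest. The log2 change against cells alone was -0.29 ± 0.05 for MiaTAM, -0.51 ± 0.05 for BxTAM and -0.81 ± 0.05 for MDM. MiaTAM exceeded MDM by 0.52 ± 0.05 and BxTAM by 0.22 ± 0.05, and BxTAM exceeded MDM by 0.30 ± 0.05.

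Dst encodes dystonin, the plakin whose epithelial isoform is BPAG1e (ENSRNOG00000012207, chr9:37902303-38196273). It had 1159, 1107 and 1137 CPM in MiaTAM libraries, 1261, 1286 and 1289 CPM in BxTAM libraries, 1089.8, 1042 and 1121 CPM in MDM libraries and 1197, 1209.6 and 1044 CPM in cells alone. The BxTAM libraries lay above all others, which overlapped one another. BxTAM differed from MDM by a log2 change of 0.24 ± 0.05 and from cells alone by 0.15 ± 0.05, and MiaTAM differed from BxTAM by -0.17 ± 0.05. MiaTAM and MDM against cells alone gave -0.02 ± 0.05 and -0.09 ± 0.05. Plec over Dst in FPKM averaged 0.575 ± 0.0463 in MiaTAM, 0.438 ± 0.0114 in BxTAM, 0.420 ± 0.0202 in MDM libraries and 0.695 ± 0.0175 in cells alone (SD, n = 3 each).

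**Figure D3:**
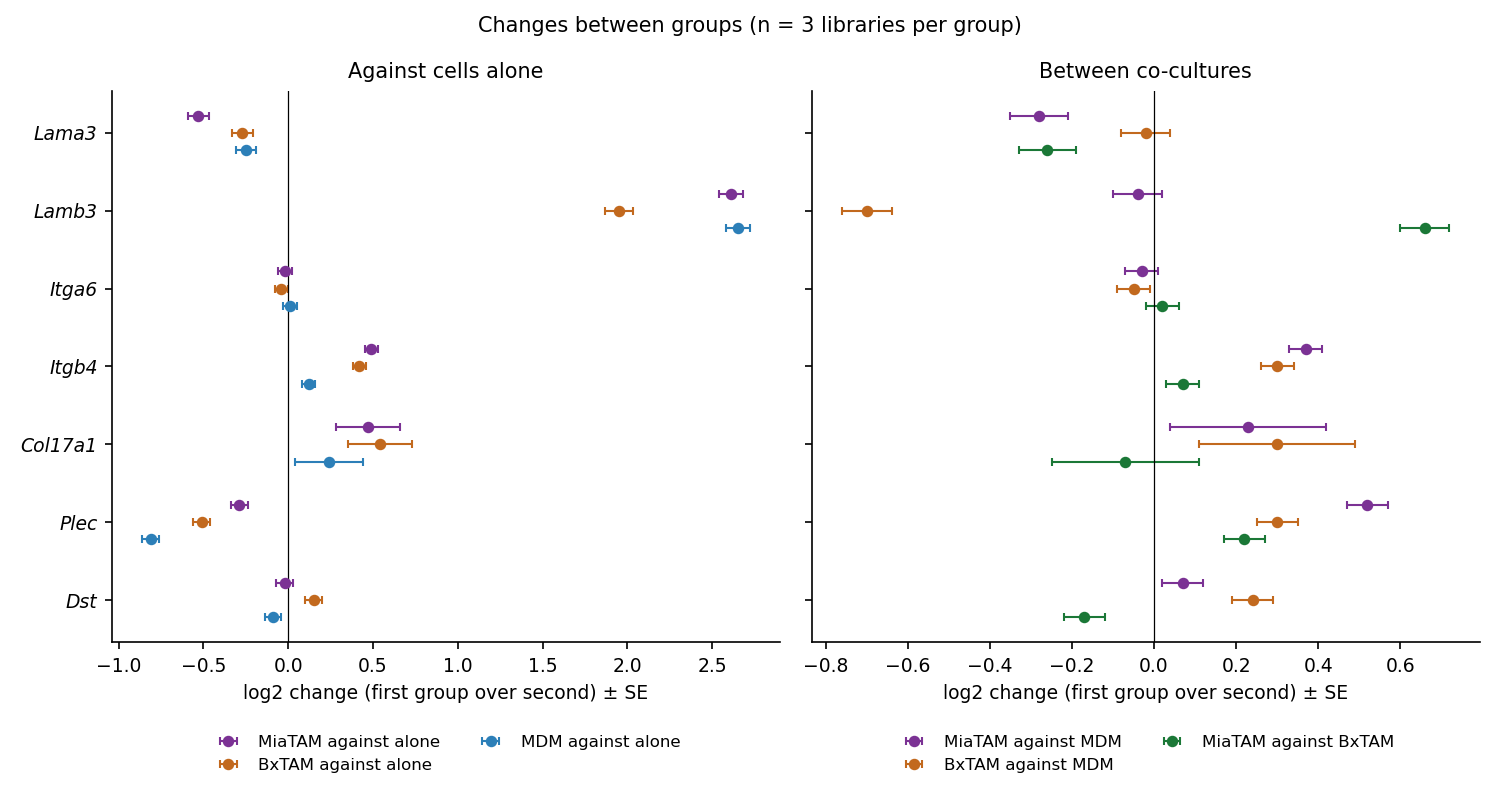
Log2 change of each of the 7 genes (vertical axis) in each comparison, first group over second (horizontal axis). Points are estimates from 3 libraries against 3 and bars are SE. Lamb3 reaches 2.65 against cells alone, Plec is below 0 in every co-culture against cells alone, and Itga6 stays near 0 throughout.

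Counted by edgeR's quasi-likelihood test at an adjusted p under 0.05, 3 of the 7 genes were higher and 2 lower in MiaTAM against cells alone, where 65.1% of all tested genes were called (31.4% higher, 33.7% lower). For BxTAM against cells alone 4 were higher and 2 lower, beside 60.9% of all genes called (30.0% higher, 30.9% lower). For MDM against cells alone 2 were higher and 2 lower, beside 65.1% of all genes (32.0% higher, 33.1% lower). In MiaTAM against MDM 2 were higher and 1 lower, beside 41.0% of all genes (19.8% higher, 21.1% lower). In BxTAM against MDM 3 were higher and 1 lower, beside 34.7% (17.4% higher, 17.3% lower). In MiaTAM against BxTAM 2 were higher and 2 lower, beside 24.2% (11.0% higher, 13.3% lower). Since the genes were chosen with these contrasts known, nothing is read from these counts. Their median log2 change lay between -0.02 and 0.24 over the 6 comparisons, beside -0.01 to 0.00 over all tested genes.

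Of 8 other laminin chains, 5 were tested, and in MDM against cells alone 3 rose and none fell, where 65.1% of all genes were called. Lama5, the widespread alpha 5 chain, averaged 455 ± 10.7 CPM in MDM libraries and 248 ± 13.9 CPM in cells alone (log2 0.87 ± 0.05, edgeR adjusted p = 1.4e-12). Lamb1 averaged 489.8 ± 9.94 CPM in MDM libraries and 281 ± 6.41 CPM in cells alone (0.80 ± 0.04, adjusted p = 1.9e-13). The remaining one was Lama4, an alpha chain of vessel and nerve basement membranes. Lama4 rose further in MiaTAM against MDM (0.41 ± 0.06, adjusted p = 1.8e-05) and in BxTAM against MDM (0.53 ± 0.06, adjusted p = 7.6e-07). Of those 5, it was the only one that rose in either comparison, and Lamb2 was the only one that fell, in MiaTAM against MDM (-0.14 ± 0.05, adjusted p = 0.0279). That call of Lamb2 was lost without MDM replicate 2 (-0.12) or 3 (-0.14), without MiaTAM replicate 1 (-0.13) or 3 (-0.14), with upper-quartile factors (-0.12) and on the log2(FPKM + 1) scale (-0.12). Lamc1, the common gamma 1 chain, averaged 524 CPM in MiaTAM and 542 CPM in MDM libraries (-0.05 ± 0.04, adjusted p = 0.312).

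Of 12 other laminin receptors and their partners, 11 were tested. In MDM against cells alone, where 65.1% of all genes were called, 8 rose and 2 fell. Itga1, the alpha 1 subunit that binds collagens and laminins, averaged 45.6 CPM in MDM libraries and 20.5 CPM in cells alone (1.15 ± 0.08, edgeR adjusted p = 7.5e-11). Against MDM, 6 rose and 1 fell in MiaTAM, and 4 rose and 2 fell in BxTAM. Of all tested genes, 41.0% and 34.7% were called there. Cspg4, the NG2 proteoglycan, rose in MiaTAM against MDM (97.3 and 64.1 CPM, 0.60 ± 0.06, adjusted p = 1.5e-07), and so did Cd82, a tetraspanin (327 and 262 CPM, 0.32 ± 0.04, adjusted p = 4.8e-06). Against cells alone, at 89.5 CPM, Cspg4 fell in MDM (-0.48 ± 0.06, adjusted p = 6.7e-07) and was not called in MiaTAM (0.12 ± 0.06, adjusted p = 0.0866). Cd82 also rose in MDM against cells alone (262 and 188 CPM, 0.48 ± 0.04, adjusted p = 4.1e-09). Itgb1, the beta 1 subunit that competes with beta 4 for alpha 6, rose in MiaTAM against MDM (2015 and 1722 CPM, 0.23 ± 0.04, adjusted p = 2.4e-04) and in BxTAM against MDM (2035 and 1722 CPM, 0.24 ± 0.04, adjusted p = 1.7e-04). Against cells alone, at 1912 CPM, Itgb1 fell in MDM (-0.15 ± 0.04, adjusted p = 0.00394), a call lost with upper-quartile factors (-0.09). It was not called in MiaTAM (0.08 ± 0.04, adjusted p = 0.126) or BxTAM (0.09 ± 0.04, adjusted p = 0.0747) against cells alone. Itga3, whose product pairs with beta 1 as the other laminin-332 receptor, rose in MDM against cells alone (2992 and 2327 CPM, 0.36 ± 0.04, adjusted p = 1.3e-07). In MiaTAM against MDM Itga3 gave -0.02 ± 0.04 (adjusted p = 0.781), and in BxTAM against MDM it fell (2654 and 2992 CPM, -0.17 ± 0.04, adjusted p = 0.00238). Itga7, another laminin-binding alpha subunit, rose in MiaTAM against MDM (576 and 482 CPM, 0.26 ± 0.04, adjusted p = 3.3e-05) and in BxTAM against MDM (555 and 482 CPM, 0.20 ± 0.04, adjusted p = 5.2e-04). It also rose in MDM against cells alone (482 and 371 CPM, 0.38 ± 0.04, adjusted p = 6.4e-08). Itgb4 made up 6.24% ± 0.426 of the FPKM of Itgb1 and Itgb4 in MiaTAM, 5.90% ± 0.294 in BxTAM, 5.68% ± 0.269 in MDM libraries and 4.75% ± 0.198 in cells alone. Cd151, the tetraspanin partner of these integrins, was listed at 0 in all libraries.

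On the filament side, Ppl, which encodes periplakin, fell in MDM against cells alone to 69.2 ± 6.10 CPM in MDM libraries, against 167 ± 10.8 CPM in cells alone (-1.27 ± 0.06, edgeR adjusted p = 3.1e-13). It also fell to 83.1 ± 4.54 CPM in MiaTAM (adjusted p = 8.9e-12) and to 88.1 ± 4.48 CPM in BxTAM libraries (-0.92 ± 0.06, adjusted p = 4.0e-11), both against cells alone. The only other tested plakin of the list, Macf1, a microtubule and actin linker, did not pass against cells alone in any co-culture (-0.08, 0.03 and -0.10 in MiaTAM, BxTAM and MDM). Of the intermediate filament genes, 3 of 7 were tested. In MDM against cells alone, where 65.1% of all genes were called, 2 rose and 1 fell. The rise of Vim, which encodes vimentin (0.10 ± 0.04, adjusted p = 0.0478), was lost without any of BxTAM replicates 1 to 3, MDM replicate 2, MiaTAM replicate 3 or replicates 1 and 2 of the cells alone, each left out singly (0.06 to 0.11). That call was also lost on the log2(FPKM + 1) scale (0.07). Krt8, a simple epithelial keratin, averaged 4.03 ± 0.411 CPM in MiaTAM, 3.76 ± 0.789 in BxTAM, 8.22 ± 0.741 in MDM libraries and 2.93 ± 0.325 in cells alone, and it fell against MDM in MiaTAM (-1.03 ± 0.14, adjusted p = 6.1e-06) and in BxTAM (-1.13 ± 0.14, adjusted p = 2.6e-06). Krt5 and Krt14, the keratins that hemidesmosomes anchor in the epidermis, did not pass the filter. In the comparison with MDM, Vim fell and stood at 1645 CPM in MiaTAM and 1869.8 CPM in MDM libraries (-0.19 ± 0.04, adjusted p = 0.00164). Gfap, a glial filament gene, fell in MDM against cells alone (1.22 and 2.84 CPM, -1.21 ± 0.22, adjusted p = 5.2e-05).

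Of 10 further basement membrane genes 5 were tested. In MDM against cells alone, where 65.1% of all genes were called, 4 rose and none fell. They were Nid2 (586 and 341 CPM, 0.78 ± 0.04, edgeR adjusted p = 4.4e-13) and Nid1 (0.51 ± 0.05, adjusted p = 1.4e-08), the nidogens that bridge laminin and collagen IV, Agrn, the heparan sulfate proteoglycan agrin (0.75 ± 0.05, adjusted p = 1.9e-10), and Ntn4. Ntn4 encodes netrin 4, which binds laminin gamma chains, and averaged 1.71 ± 0.311 CPM in MiaTAM, 1.07 ± 0.0320 in BxTAM, 2.20 ± 0.200 in MDM libraries and 0.639 ± 0.173 in cells alone (MDM against cells alone 1.77 ± 0.24, adjusted p = 1.9e-06). Against MDM none of the 5 rose. In MiaTAM Nid1 (-0.20 ± 0.05, adjusted p = 0.00301) and Nid2 (-0.13 ± 0.04, adjusted p = 0.0103) fell, where 41.0% of all genes were called. In BxTAM Nid2 (-0.13 ± 0.04, adjusted p = 0.0122) and Ntn4 (-1.04 ± 0.22, adjusted p = 8.9e-04) fell, where 34.7% were called. Both Nid2 calls were lost without MDM replicate 2 (-0.10), and that in BxTAM also without BxTAM replicate 3 (-0.10).

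Of 9 proteases that can cut laminin-332 or collagen XVII, 8 were tested. In MDM against cells alone 5 rose and 2 fell, in MiaTAM against MDM 4 rose and 1 fell, and in BxTAM against MDM 3 rose and 1 fell. Of all tested genes, 65.1%, 41.0% and 34.7% were called in these comparisons. Tll1, a tolloid-like protease of the family that trims laminin chains, averaged 17.9 ± 1.40 CPM in MiaTAM, 20.3 ± 1.33 in BxTAM, 10.8 ± 0.956 in MDM libraries and 10.7 ± 0.649 in cells alone. Tll1 rose in MiaTAM against MDM (0.74 ± 0.09, edgeR adjusted p = 1.4e-06) and in BxTAM against MDM (0.91 ± 0.09, adjusted p = 6.8e-08), and it gave -0.00 ± 0.09 in MDM against cells alone (adjusted p = 0.989). Bmp1, its relative, rose in MiaTAM against MDM (91.6 and 80.5 CPM, 0.19 ± 0.04, adjusted p = 0.00187). It rose more in MDM against cells alone (80.5 and 56.7 CPM, 0.50 ± 0.05, adjusted p = 5.3e-09). Plat, the tissue plasminogen activator gene, averaged 28.1 ± 0.303 CPM in MDM libraries and 8.02 ± 0.604 CPM in cells alone (1.81 ± 0.10, adjusted p = 1.3e-12). Plau, which encodes urokinase, rose in BxTAM against MDM (87.4 and 68.4 CPM, 0.36 ± 0.05, adjusted p = 4.3e-06). It also rose in MiaTAM against MDM (0.18 ± 0.05, adjusted p = 0.00314). Its rise was larger in MDM against cells alone (68.4 and 41.8 CPM, 0.71 ± 0.05, adjusted p = 7.7e-11).

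All 10 focal adhesion genes, whose products serve the beta 1 integrins, were tested. In MDM against cells alone 2 rose and 6 fell, and in MiaTAM against MDM 4 rose and 2 fell. Of all tested genes, 65.1% and 41.0% were called in these comparisons. Parva, which encodes parvin alpha, fell in MiaTAM against MDM (138 and 166 CPM, -0.26 ± 0.04, edgeR adjusted p = 8.5e-06) and in MDM against cells alone (166 and 231 CPM, -0.48 ± 0.04, adjusted p = 2.5e-10). Actn1, which encodes alpha actinin, rose in MiaTAM against MDM (420.4 and 363 CPM, 0.21 ± 0.04, adjusted p = 1.2e-04). Against cells alone, at 422 CPM, Actn1 fell in MDM (-0.22 ± 0.04, adjusted p = 3.1e-05) and was not called in MiaTAM (-0.01 ± 0.04, adjusted p = 0.889). Tln1, the integrin activator talin, rose in MDM against cells alone (975 and 743 CPM, 0.39 ± 0.04, adjusted p = 1.0e-07).

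**Figure D4:**
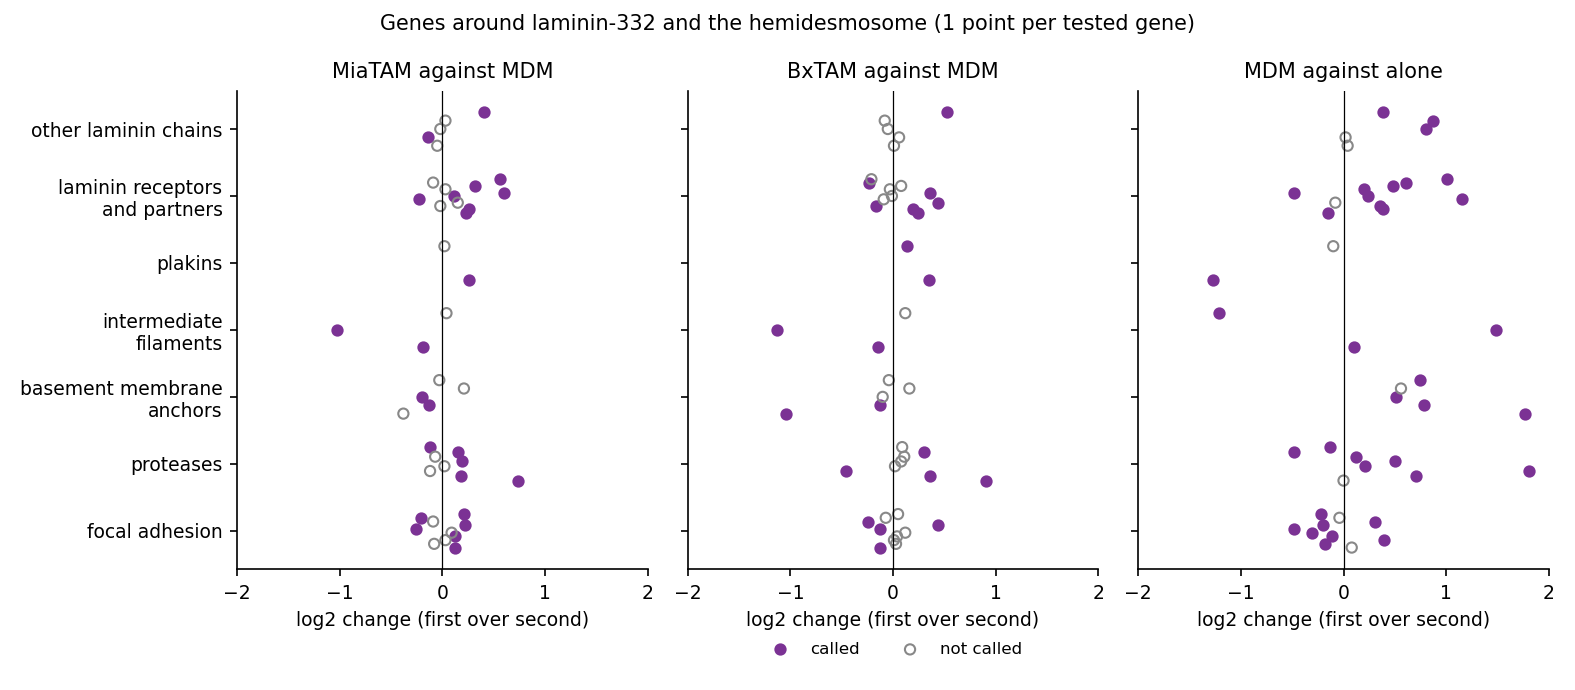
Log2 change (horizontal axes, first group over second) of each tested gene of 7 lists around laminin-332 and the hemidesmosome (vertical axis) in 3 comparisons. Filled points passed an adjusted p under 0.05 in edgeR and open points did not. In MDM against cells alone, all called laminin chains and basement membrane anchors lie above 0, and 6 of 8 called focal adhesion genes lie below it. Of all tested genes, 65.1% were called in that comparison (32.0% higher, 33.1% lower).

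Likeness of pattern was measured as Pearson's r of log2 CPM over the 12 libraries, which share group and library, and is given as a description. The genes closest to Lamb3 were Col1a1 (0.996) and LOC100359668 (0.996). Col1a1 encodes a fibrillar collagen chain and is among the fibroblast markers above (75.0 CPM in MiaTAM, 50.7 in BxTAM, 73.7 in MDM and 16.9 in cells alone). The closest to Lama3 were Wdr11 (0.963) and Gsdmd (0.959), to Itga6 Asnsd1 (0.862) and Zfand4 (0.804), and to Itgb4 Mgrn1 (0.987) and Sgpl1 (0.982). Mvd (0.894) and Ifnar2 (0.861) came closest to Col17a1, Nubp2 (0.988) and Rnf187 (0.986) to Plec, and Vps13c (0.939) and Wnk1 (0.916) to Dst. Among the 7 genes, Lama3 ran opposite to Lamb3 (-0.78) and to Itgb4 (-0.79), Lamb3 ran opposite to Plec (-0.77), and Itgb4 ran with Col17a1 (0.72).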

How the data were processed

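The authors deposited 1 table with a raw count and an FPKM value per gene and library, per the file headers, and the FPKM are scaled for gene length and library total. Libraries came from a stranded mRNA kit, per the labels' protocols. The submitters' processing notes name HISAT2, StringTie 1.3.0, CASAVA and the build Rnor_6.0. No source used here names the counting tool, its strand setting or the annotation release. For each gene, the length implied by its count and FPKM differed between libraries by at most 0.0945%.

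Groups came from the labels. Counts were fitted in edgeR 4.0.16 (R 4.3.3) after filterByExpr by group, which left 12360 genes, with TMM factors of 0.98 to 1.01. A single quasi-likelihood fit held all 12 libraries, with a mean for each group and no replicate block (common dispersion 0.00218, 8 residual and 11.97 prior degrees of freedom). Genes were called at a Benjamini-Hochberg adjusted p under 0.05 over all genes tested, in 6 comparisons, of which those against cells alone share their controls, as do those against MDM. CPM values are TMM-scaled. The fit was tested on simulated data. No libraries were duplicated.

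The 7 genes and all lists were chosen with earlier results of these data known. Named beside them are up to 3 genes per list with the smallest p in MiaTAM against MDM and in MDM against cells alone, Itgb1, Itga3 and Cd151, and the 2 genes most like each of the 7 by Pearson's r of log2 CPM (prior count 2) among those averaging at least 1 CPM. Galk1 and SNORA42 are named because they overlap a locus, and markers as a check. A gene that the rule names is not reported here. Alternatives were DESeq2 1.42.0, its size factors, upper-quartile factors, no filter, only the 2 groups compared, a replicate block, limma 3.58.1 on log2(FPKM + 1), log2(CPM + 0.5) means, and leaving out each library. Motifs were searched in RefSeq promoters of GRCr8. The matched reference table has a different build from the files, so no coordinate was moved between them.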

Additional observations from a re-analysis of the deposited data

Results flagged for a closer look

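Among the genes that the naming rule covers, 12 differed between MiaTAM and BxTAM in their change against MDM, by edgeR's quasi-likelihood test of the difference itself (equal to MiaTAM over BxTAM, n = 3 each, log2 ± SE). Higher in MiaTAM were Ntn4 (0.66 ± 0.23, adjusted p = 0.0418), Plat (0.35 ± 0.08, adjusted p = 0.00559), Cspg4 (0.24 ± 0.06, adjusted p = 0.00615), Cd82 (0.23 ± 0.04, adjusted p = 6.0e-04), Actn1 (0.17 ± 0.04, adjusted p = 0.00325), Itga3 (0.16 ± 0.04, adjusted p = 0.00851), Ilk (0.15 ± 0.04, adjusted p = 0.00899) and Cd81 (0.14 ± 0.05, adjusted p = 0.0319). Lower in MiaTAM were Lamb2 (-0.20 ± 0.05, adjusted p = 0.00610), Plau (-0.17 ± 0.05, adjusted p = 0.00975), Parva (-0.14 ± 0.04, adjusted p = 0.0103) and Fermt2 (-0.14 ± 0.04, adjusted p = 0.0140). Counting also genes beyond that rule, the full lists held 1 called laminin chain, 6 receptors and partners, 1 basement membrane anchor, 5 proteases and 6 focal adhesion genes in that comparison, in which 24.2% of all tested genes were called. Ntn4 was not called without any of BxTAM replicates 1 to 3, MDM replicate 1 or MiaTAM replicates 2 and 3, each left out singly (0.55 to 0.69), nor by DESeq2 (0.68). Its call was also lost with no filter on low counts (0.66) and with only the 2 groups compared (0.67). Cd81 was not called without BxTAM replicate 2 (0.15) or 3 (0.09) or MiaTAM replicate 2 (0.09), nor with only the 2 groups compared (0.14). Lamb2 was not called without BxTAM replicate 2 (-0.15), Parva without BxTAM replicate 2 (-0.12), and Fermt2 without BxTAM replicate 3 (-0.11) or MiaTAM replicate 2 (-0.11).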

How the results depend on the processing

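No value of the 7 genes changed direction among those called, and all 42 counts of called genes under other settings stayed within 1.5 times the main count. With 1 library left out, 69 of 72 counts did. The exceptions were in MiaTAM against BxTAM, where 2997 genes were called with all libraries and 1933 to 3113 with 1 left out. They were 1978 without BxTAM replicate 2, 1976 without BxTAM replicate 3 and 1933 without MiaTAM replicate 2, and the cause was not tested. All these counts are totals over both directions, and the split by direction shifted with upper-quartile factors. Against cells alone, 4664 genes were then higher and 3446 lower in MiaTAM, beside 3877 and 4164 in the main fit. BxTAM then gave 4348 higher and 3213 lower (main fit 3710 and 3814), and MDM 4579 and 3497 (main fit 3952 and 4095). Col17a1, at 29 to 68 counts per library, was called against cells alone with all libraries, but not by DESeq2 in MiaTAM or BxTAM, nor in MiaTAM on the log2(FPKM + 1) scale (0.15). Its call was also lost without replicate 1 of the cells alone (0.30 in MiaTAM and 0.37 in BxTAM), without MiaTAM replicate 2 (0.35), and without BxTAM replicate 1 (0.52) or replicate 2 (0.50). Dst was called in MDM against cells alone only without replicate 3 of the cells alone (-0.14). On the log2(FPKM + 1) scale, which understates changes of low genes, Lamb3 changed by 2.25, 1.62 and 2.27 in MiaTAM, BxTAM and MDM against cells alone. With upper-quartile factors, which moved the median gene by up to 0.07, Itga6 gave 0.05, 0.02 and 0.07 in those comparisons. Replicate numbers did not pair the libraries: 2 of 18 same-number pairs correlated above 0.1 (range -0.22 to 0.31), and 3 of 12 libraries correlated best with their own number. With a replicate block, 8021, 7496, 8046, 5059, 4275 and 2993 genes were called, in the order of comparisons MiaTAM, BxTAM and MDM against cells alone, MiaTAM and BxTAM against MDM, and MiaTAM against BxTAM. Of the other named genes, 18 of 826 values under other settings and 53 of 1416 with 1 library left out moved or lost their call, and none reversed. Low counts limit genes such as Col17a1, Gfap and Ntn4.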
